A study of Mus musculus with 11 samples.

Results

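Plasminogen activation and coagulation regulators were examined as a group of 9 genes in 11 mouse pancreatic tumours. The 9 genes were chosen by name and read as rows of a count table of 54232 Ensembl genes. They were *Plau*, *Plaur* and *Plat*, which activate plasminogen or receive its activator, *Serpine2* and *Serpinb2*, which inhibit activators or related proteases, *F3*, *Tfpi* and *Tfpi2*, which start or restrain coagulation, and *F13a1*, which cross-links fibrin. All 9 are protein-coding genes, given below with their positions on GRCm38, and all 9 were among the 16536 genes that passed the filter on low counts and were tested.

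The tumours were grown in the pancreas of female C57BL/6 RosaCreERT2 mice, which carry a tamoxifen-inducible Cre recombinase under the ubiquitous Rosa26 promoter. Hosts were PKN2 fl/fl (KO, 6 tumours) or PKN2 +/+ (WT, 5 tumours), and both groups received tamoxifen. Each host was injected with 1000 TB32048 cells, a mouse carcinoma line that keeps an intact *Pkn2* gene, in DMEM and Matrigel. The deletion covered the whole host and was not confined to stellate cells, all tumours came from 1 implanted line, and 1 end point was sampled. The hosts were adult and matched for sex and age. *Pkn2* itself, counted over all its exons and in carcinoma cells as well as host cells, was 96.6 ± 9.34 CPM (read counts set to the same library size) in KO (SD, n = 6) and 96.7 ± 34.6 CPM in WT (SD, n = 5), so that it gives no check of the genotype labels.

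Plasminogen is cleaved to plasmin by the urokinase activator (*Plau*), which is held at the cell surface by its receptor (*Plaur*), or by the tissue activator (*Plat*). Serpins block the activators, and plasmin in turn degrades fibrin and parts of the extracellular matrix. Tissue factor (*F3*) starts coagulation with factor VII, tissue factor pathway inhibitor (*Tfpi*) restrains it, and factor XIII joins fibrin strands. Pancreatic carcinoma is known for a fibrin-containing stroma and for tissue factor on its cells.

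Library totals ran from 16294128 to 31121422 counts. The share of ribosomal RNA counts was 0.308% to 0.739% in KO tumours, and 1.31%, 6.39% and 1.40% in WT A, B and C against 0.765% and 0.241% in WT D and E. The rank correlation across genes between exon length and level relative to the mean of all tumours was negative in WT A, B and C only (the lowest was −0.505). Fitted differences are therefore given with and without these 3 tumours. WT E had the highest summed level of 8 acinar markers, 1932 CPM. The labels give no extraction or sequencing batch.

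The members differed widely in level. On a scale of CPM per kilobase of exon over all 11 tumours, *Plaur* was highest at 61.3 ± 18.6 (SD, n = 11), followed by *F3* at 39.5 ± 12.6 and *Plat* at 36.8 ± 14.6. *Plau* and *Serpine2* lay at 21.1 ± 5.77 and 17.1 ± 5.68. The lower members were *Tfpi2* at 7.18 ± 3.40, *F13a1* at 4.15 ± 3.88, *Tfpi* at 3.17 ± 0.739 and *Serpinb2* at 2.09 ± 1.14. In this order only the step from *Serpine2* to *Tfpi2* was larger than the sum of the SDs of both neighbours. *Plat* and *F13a1* took different places within the groups. *Plat* came after *Plaur* and before *F3* in KO, at 46.3 ± 10.2 against 35.0 ± 9.40 for *F3* (SD, n = 6), and after both in WT, at 25.5 ± 10.4 against 44.9 ± 14.9 for *F3* (SD, n = 5). *F13a1* lay above *Tfpi* in KO, at 5.65 ± 4.72 against 3.19 ± 0.529, and below it in WT, at 2.36 ± 1.53 against 3.16 ± 1.01, and neither step was larger than the SDs.

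The region around the annotated start of 3 members is shown as sequence, the most abundant member (*Plaur*), the initiator of coagulation (*F3*) and the member with the largest fitted difference (*F13a1*, 1 of its 2 windows). Windows are from RefSeq on GRCm38.p6, run 5′ to 3′ on the gene's strand and span 250 bases before to 50 bases after the start. Capitals mark each match to TGANTCA, the letters bound by AP-1 factors, searched on both strands.

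*Plaur*, chr7:24462233-24462532, plus strand: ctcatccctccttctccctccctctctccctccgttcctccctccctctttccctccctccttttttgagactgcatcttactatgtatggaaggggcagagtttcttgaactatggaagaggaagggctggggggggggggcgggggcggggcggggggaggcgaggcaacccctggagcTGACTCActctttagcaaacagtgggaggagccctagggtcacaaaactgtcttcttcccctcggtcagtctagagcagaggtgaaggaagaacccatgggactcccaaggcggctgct

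*F3*, chr3:121723287-121723586, plus strand: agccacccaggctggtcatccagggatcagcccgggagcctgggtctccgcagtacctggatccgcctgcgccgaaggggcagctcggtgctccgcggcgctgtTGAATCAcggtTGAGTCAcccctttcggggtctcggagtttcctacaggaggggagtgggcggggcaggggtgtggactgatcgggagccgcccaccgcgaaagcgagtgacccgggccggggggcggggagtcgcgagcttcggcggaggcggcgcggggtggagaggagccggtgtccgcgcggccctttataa

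*F13a1*, chr13:37050195-37050494, minus strand: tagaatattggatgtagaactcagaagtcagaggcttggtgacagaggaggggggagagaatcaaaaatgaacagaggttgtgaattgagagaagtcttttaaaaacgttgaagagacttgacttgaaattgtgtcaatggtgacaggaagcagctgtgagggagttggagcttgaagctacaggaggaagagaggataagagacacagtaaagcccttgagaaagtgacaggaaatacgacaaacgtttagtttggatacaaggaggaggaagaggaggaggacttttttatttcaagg

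The *Plaur* window held 1 match, beginning 69 bases before the start, and the *F3* window held 2, beginning 146 and 135 bases before it. The *F13a1* window held none. Of the 7 members found in the promoter table, 4 had a match in at least 1 of their windows (*Plaur*, *F3*, *Serpinb2* and *Tfpi2*). Counted by window, 5 of 12 held a match, beside 7.81% of all 32851 windows. The 2 *Serpinb2* windows overlap and hold the same match, so that it is counted in both. The letters GGAATG, which TEAD factors bind, were in 0 of the 12 member windows and in 14.7% of all windows. These matches are a description of the sequence and say nothing on binding.

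No member passed the adjusted p threshold of 0.05 between KO and WT (edgeR quasi-likelihood test, Benjamini-Hochberg adjustment), where 0.0181% of all genes tested did. At an unadjusted p under 0.05, 2 of 9 members were found, *Plat* and *F13a1*, both higher in KO, against 24% of all genes in either direction and 8.57% in that direction (15.5% were lower). The genes had been chosen with earlier results of these tumours known, and in either direction their share was close to that of all genes. For 0 of the 9 members did the KO and WT tumours not overlap, and 3.6% of all genes tested had groups that did not overlap. The median log2 fold change of the members was 0.02, beside −0.03 over all genes tested. DESeq2 called 1 member, *Plat*, higher in KO, where it called 2.01% of the 29531 genes it tested in that direction. It was run without the filter on low counts, so that this share includes scarce genes that edgeR left out.

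**Figure D1:**
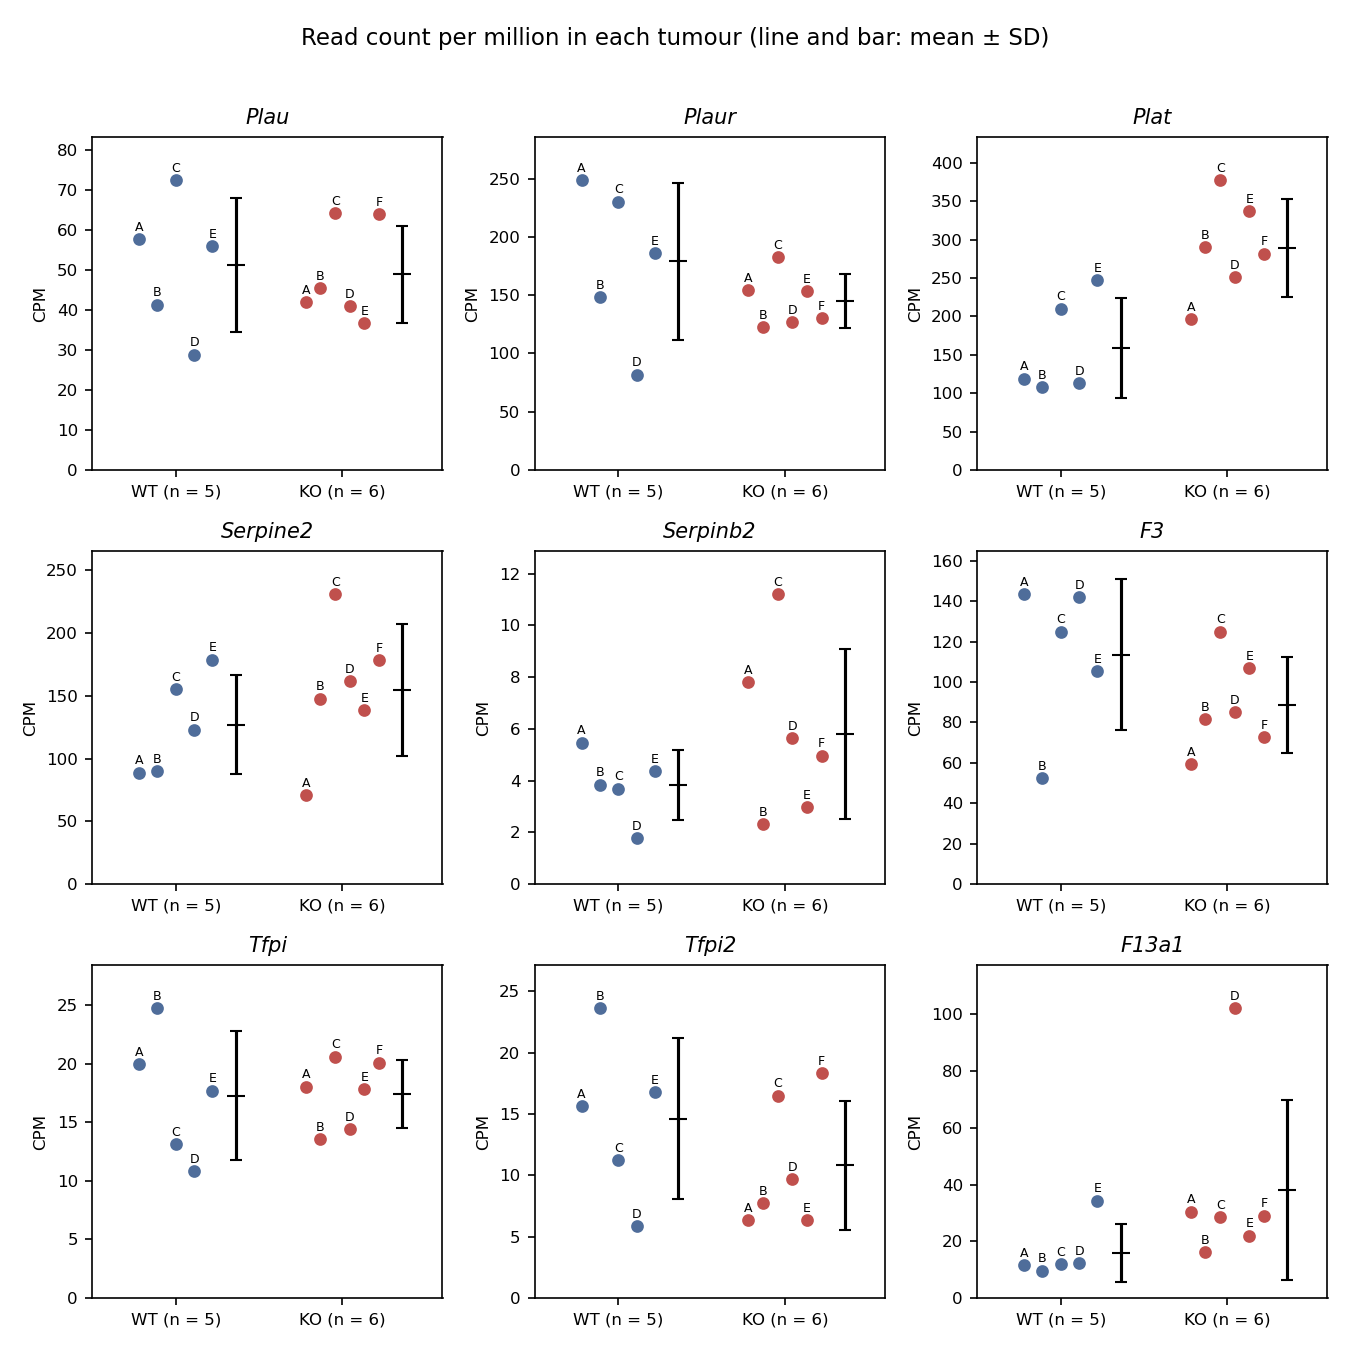
Level of the 9 genes in each tumour, in CPM with TMM-scaled library sizes on a linear axis from 0, for 5 WT and 6 KO tumours lettered as in the labels, with the mean ± SD beside each group. All 6 KO points of *Plat* lie above the WT median of 119 CPM, and a single KO tumour carries the highest *F13a1* value of 102 CPM.

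*Plat* (ENSMUSG00000031538, chr8:22757727-22782844, plus strand) encodes tissue plasminogen activator, the main activator in blood vessels. Its level ran from 196 CPM in KO A through a median of 286 to 377 in KO C, and was 119, 107, 210, 113 and 247 CPM in WT A to E. WT C and WT E reached into the KO range. Of the KO tumours, 5 lay above every WT tumour, and 3 WT tumours lay below every KO tumour. The fitted log2 fold change was 0.86 ± 0.26 (SE), a 1.81-fold higher level with a 95% interval of 0.30 to 1.42 on the log2 scale, and the adjusted p was 0.102 by edgeR. DESeq2 gave 0.87 with an adjusted p of 0.0314. Over all alternatives tried, the adjusted p ran from 0.0302 to 0.533, and the log2 fold change stayed positive, from 0.61 to 1.08. Without WT E, edgeR called both *Plat* (adjusted p = 0.0302) and *F13a1* higher, in a fit that called 3.63% of all genes higher. Without WT A, B and C the *Plat* log2 fold change was 0.69 (95% interval −0.03 to 1.40, adjusted p = 0.307, edgeR). In a separate fit on all tumours, with the share of ribosomal RNA as a covariate, it was 0.61 (adjusted p = 0.533, edgeR).

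*Plat* is made by endothelial cells and by fibroblasts, and the markers of both were read beside it. Of 10 endothelial markers, 7 had a log2 fold change above 0. The 2 with an unadjusted p under 0.05 (edgeR), *Egfl7* and *Cldn5*, were both at −1.03, where 15.5% of all genes tested were lower. Both had their highest WT values in WT A, B and C. In WT D and E, *Egfl7* was 14.8 and 27.8 CPM, against 16.7 to 24.8 in KO. *Cldn5* was 7.25 and 8.69 CPM there, against 6.72 to 22.4 in KO. No fit without WT A, B and C is given for these markers. The summed level of the 10 endothelial markers was 280 to 411 CPM in KO and 195 to 413 in WT. Of 10 fibroblast markers, 9 were above 0, with sums of 4736 to 9793 CPM in KO and 2711 to 9768 in WT. No marker of these lists was at 0, both sums overlapped between groups, and their part in the *Plat* difference was not tested. In bulk tumours, fewer cells of a type and less RNA per cell cannot be told apart.

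*F13a1* (ENSMUSG00000039109, chr13:36867178-37050244, minus strand) encodes the catalytic A subunit of factor XIII, which macrophages and megakaryocytes make. Its level was 16.2 CPM in KO B, a median of 28.8 and 102 in KO D, and it was 11.5, 9.60, 11.9, 12.2 and 34.3 CPM in WT A to E. KO D stood far above the other KO tumours, which ended at 30.5 CPM, and WT E stood inside the KO range, whereas the other 4 WT tumours lay below every KO tumour. The fitted log2 fold change was 1.25 ± 0.49 (SE; 95% interval 0.20 to 2.31; adjusted p = 0.151, edgeR). It was 0.66 without KO D (adjusted p = 0.301, edgeR) and 1.75 without WT E (adjusted p = 0.0386, edgeR). Without WT A, B and C it was 0.71 (95% interval −0.87 to 2.29). The adjusted p ran from 0.0386 to 0.623 over all alternatives. *F13a1* has 2 antisense transcripts in the annotation, and the strand setting of the counting step is not given in the sources used here.

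Markers of the cells that make factor XIII A were read beside it. None passed the adjusted threshold, which 0.0181% of all genes tested passed. Of 10 macrophage markers, 9 had a log2 fold change above 0, with sums of 3549 to 6255 CPM in KO and 3098 to 6119 in WT. Of 8 monocyte markers, 7 were above 0, with sums of 2600 to 3704 CPM in KO and 1657 to 2667 in WT. At an unadjusted p under 0.05 (edgeR), 4 macrophage and 5 monocyte markers were higher in KO, and 0 of either list were lower. Of all genes tested, 8.57% were higher and 15.5% lower. Of the 10 platelet and megakaryocyte markers, 4 were tested and 1 of these was above 0. At that p, 2 of them, *Pf4* and *Clec1b*, were lower. The highest WT values of both were those of WT A, B and C. The platelet sums were 20.8 to 81.4 CPM in KO and 22.5 to 208 in WT, and *Gp1bb* was at 0 in every tumour. Most of the platelet sum was *Pf4*, with a mean of 30.1 CPM in KO and 80.0 in WT, whereas *Itga2b* was at 4.09 CPM in KO and 2.64 in WT. KO D, the tumour with the highest *F13a1*, had sums of 3976, 3547 and 45.9 CPM for the macrophage, monocyte and platelet lists and was highest in none of them. The largest part of the monocyte sum was *Fn1*, at 2472 CPM in KO D and 2822 in KO B. The largest part of the macrophage sum was *Lyz2*, with a mean of 2055 CPM in KO. Single markers did stand out in KO D, and these were chosen after their values were seen. KO D was the highest of all 11 tumours for 2 of 10 macrophage markers, *Cd163* (16.8 CPM, next 11.2) and *Mrc1* (250 CPM, next 202). The same held for 2 of 8 monocyte markers, *Chil3* (441 CPM, next 169) and *Vcan* (45.6 CPM, next 39.5). It held as well for 3 of 8 neutrophil markers and for 2 of 10 platelet markers. These 2 were *Gp1ba* (0.325 CPM) and *Treml1* (0.488 CPM), with at most 9 and 12 counts in a tumour, too low to be tested. By contrast, KO D was the lowest KO tumour for *Adgre1* (74.0 CPM), *C1qb* (490 CPM), *C1qc* (394 CPM) and *Plac8* (367 CPM). The part of these cells in the difference was not tested.

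*Plau* (ENSMUSG00000021822, chr14:20836660-20843385, plus strand) encodes urokinase, and *Plaur* (ENSMUSG00000046223, chr7:24462484-24475968, plus strand) its receptor. *Plau* was 36.8 CPM at the lowest, 43.7 at the median and 64.3 at the highest in KO tumours, and 57.7, 41.4, 72.4, 28.9 and 56.0 CPM in WT A to E. The KO range lay within the WT range. The log2 fold change was −0.07 ± 0.24 (SE; 95% interval −0.58 to 0.44; adjusted p = 0.883, edgeR), and it was 0.21 without WT A, B and C.

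*Plaur* was 123 CPM at the lowest, 142 at the median and 183 at the highest in KO tumours, and 249, 148, 230, 81.7 and 186 CPM in WT A to E. WT tumours lay both above (3 tumours) and below (1 tumour) all KO tumours. The log2 fold change was −0.30 ± 0.25 (SE; 95% interval −0.83 to 0.23; adjusted p = 0.459, edgeR), and it was 0.12 without WT A, B and C. WT D was lowest of all 11 tumours in both genes.

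The inhibitory serpins among the members had higher fitted levels in KO that did not pass the test. *Serpine2* (ENSMUSG00000026249, chr1:79794197-79861180, minus strand), protease nexin-1, an inhibitor of thrombin and of plasminogen activators, ran from 70.6 CPM in KO A through a median of 155 to 231 in KO C, and was 88.7, 89.8, 155, 123 and 179 CPM in WT A to E. Both its lowest and its highest value were in KO tumours, and its log2 fold change was 0.28 ± 0.28 (SE; 95% interval −0.32 to 0.88; adjusted p = 0.548, edgeR). It was 0.12 without KO C and 0.04 (0.0368) without WT A, B and C. *Serpinb2* (ENSMUSG00000062345, chr1:107511423-107535478, plus strand), plasminogen activator inhibitor 2, ran from 2.32 CPM in KO B through a median of 5.30 to 11.2 in KO C, and was 5.47, 3.84, 3.69, 1.76 and 4.37 CPM in WT A to E. It was the scarcest member, with 45 to 322 counts a tumour, and 3 KO tumours lay above all WT tumours. Its log2 fold change was 0.60 ± 0.41 (SE; 95% interval −0.29 to 1.498; adjusted p = 0.382, edgeR). Without KO C it was 0.30, and without WT A, B and C it was 0.92. *Serpinb2* overlaps *Serpinb10* on the same strand, so that reads in the shared part are uncertain.

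The initiator and the inhibitors of the tissue factor pathway did not pass the test either. *F3* (ENSMUSG00000028128, chr3:121723537-121735048, plus strand) was 59.4 CPM at the lowest, 83.3 at the median and 125 at the highest in KO tumours, and 143, 52.4, 125, 142 and 105 CPM in WT A to E. WT B alone lay below every KO tumour and 2 WT tumours lay above all of them. The log2 fold change of *F3* was −0.36 ± 0.26 (SE; 95% interval −0.92 to 0.19; adjusted p = 0.400, edgeR), and it was −0.54 without WT B and −0.48 without WT A, B and C. Of 10 epithelial carcinoma markers, 10 had a log2 fold change below 0. At an unadjusted p under 0.05 (edgeR), 3 of them were lower in KO, where 15.5% of all genes tested were lower. Their sums overlapped, at 2777 to 5678 CPM in KO and 3118 to 9652 in WT. The part of carcinoma cells in the differences of *F3* and the other members was not tested.

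*Tfpi* (ENSMUSG00000027082, chr2:84432855-84476775, minus strand), which inhibits factor Xa and the tissue factor complex, had the smallest fitted difference of the members. It was 13.6 CPM at the lowest, 17.9 at the median and 20.6 at the highest in KO, and 19.9, 24.7, 13.1, 10.8 and 17.7 CPM in WT A to E, so that the KO range lay within the WT range. The log2 fold change was 0.02 ± 0.22 (SE; 95% interval −0.46 to 0.49; adjusted p = 0.972, edgeR), and without WT A, B and C it was 0.29. *Tfpi2* (ENSMUSG00000029664, chr6:3962595-3988919, minus strand), a matrix-bound inhibitor of plasmin and other proteases, was 6.34 CPM at the lowest, 8.70 at the median and 18.3 at the highest in KO, and 15.7, 23.6, 11.3, 5.87 and 16.8 CPM in WT A to E. Its groups overlapped over most of their range, and the log2 fold change was −0.43 ± 0.38 (SE; 95% interval −1.25 to 0.38; adjusted p = 0.494, edgeR). It was −0.19 without WT B and −0.06 (−0.0635) without WT A, B and C. Intervals that reach 0 do not show that KO and WT were alike.

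**Figure D2:**
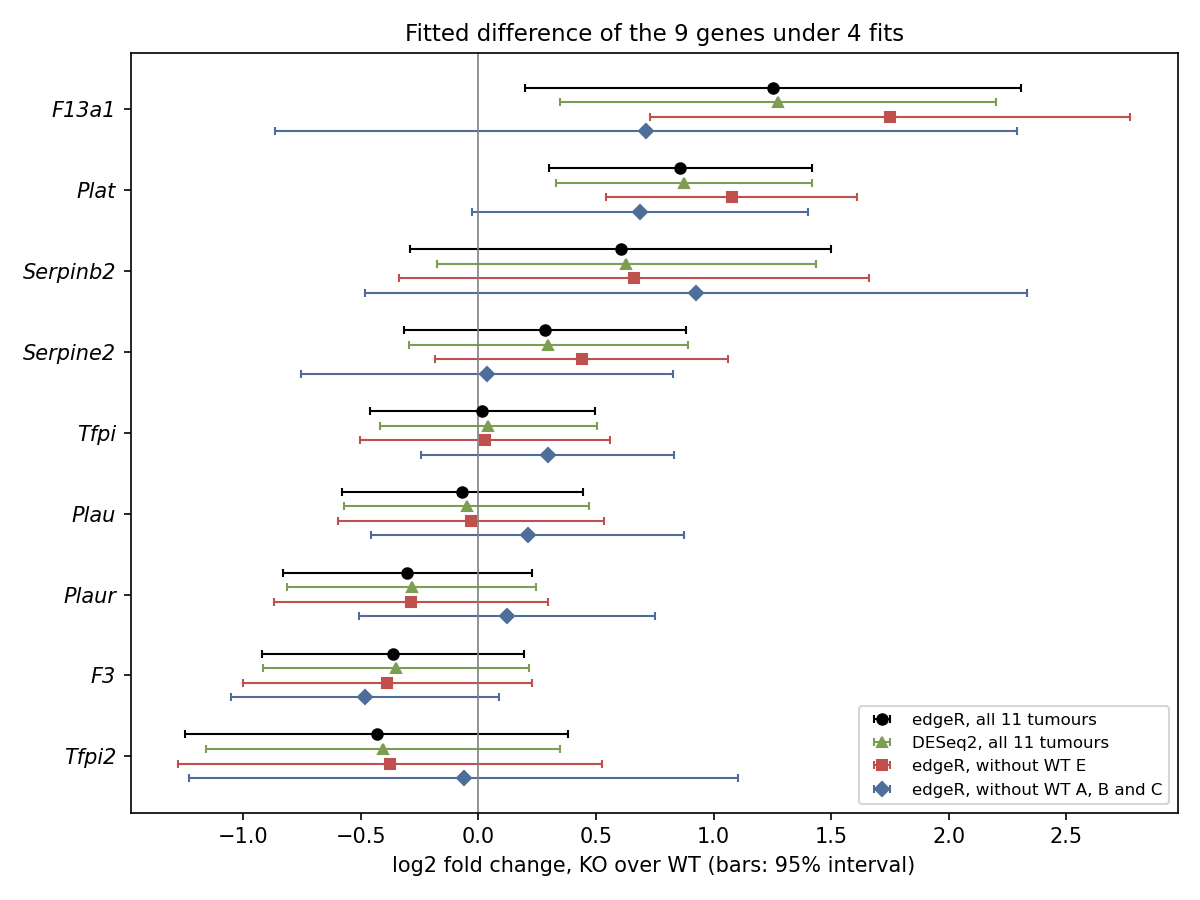
Fitted log2 fold change of the 9 genes, KO over WT, with 95% intervals, from edgeR and DESeq2 on all 11 tumours and from edgeR without WT E or without WT A, B and C. *Plat* and *F13a1* lie right of 0 in all 4 fits, from 0.69 to 1.08 and from 0.71 to 1.75, and their intervals reach 0 without WT A, B and C.

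The balance of urokinase with its receptor, and of tissue factor with its inhibitor, was read within each tumour as a log2 ratio of CPM + 1, as a description without a test. *Plau* over *Plaur* was below 0 in every tumour, at −1.57 ± 0.36 in KO (SD, n = 6) and −1.75 ± 0.23 in WT (SD, n = 5). *F3* over *Tfpi* was above 0 in every tumour, at 2.25 ± 0.40 in KO (SD, n = 6) and 2.62 ± 0.97 in WT (SD, n = 5). Both ratios differed between the groups by less than the SD of the WT tumours. The values of WT B (1.06) and WT D (3.60) were the ends of the *F3* over *Tfpi* range.

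**Figure D3:**
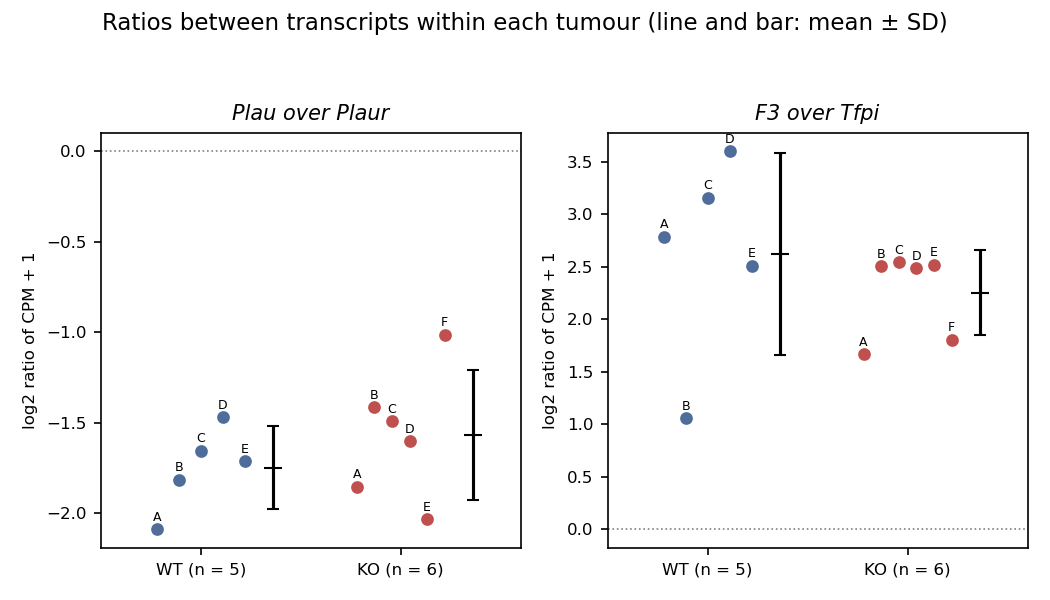
Log2 ratio of CPM + 1 between pairs of transcripts in each of 5 WT and 6 KO tumours, with the mean ± SD beside each group and a dotted line at equal levels. *Plau* over *Plaur* is below 0 and *F3* over *Tfpi* above 0 in all 11 tumours, and the groups overlap in both panels.

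The other genes of the plasminogen system were read from a list of 27, of which 23 were tested. None passed the adjusted threshold, and at an unadjusted p under 0.05 there were 6 higher and 4 lower in KO, where 8.57% of all genes tested were higher and 15.5% lower. Their median log2 fold change was 0.17, beside −0.03 over all genes tested. The substrate plasminogen (*Plg*), which the liver supplies, had 1 count in KO E and 0 counts in the other tumours, where 3 counts would be 0.0887 to 0.250 CPM. *Serpina5*, *Cpb2* and *Klkb1* were also too low to be tested.

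The 4 genes of this list with the smallest p were *Lrp1*, *S100a10*, *Igf2r* and *Serpinb6a*. *Lrp1*, the endocytic receptor that clears activator and inhibitor complexes, ran from 314 to 467 CPM in KO and was 90.5, 144, 230, 158 and 313 CPM in WT A to E. Its groups did not overlap, by a narrow gap to WT E, and its log2 fold change was 0.98 ± 0.27 (SE; adjusted p = 0.0928, edgeR) and 0.66 without WT A, B and C. *Igf2r*, a receptor that also binds *Plaur* protein and plasminogen, ran from 63.9 to 82.1 CPM in KO and was 15.7, 13.4, 29.4, 45.0 and 66.1 CPM in WT A to E. WT E alone reached the KO range, and the log2 fold change was 1.07 ± 0.35 (SE; adjusted p = 0.113, edgeR). Without WT A, B and C it was 0.36.

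The other 2 had lower fitted levels in KO. *S100a10*, which binds plasminogen at the cell surface together with annexin A2, ran from 273 to 364 CPM in KO and was 750, 849, 612, 320 and 296 CPM in WT A to E. Its high values were those of WT A, B and C. The log2 fold change was −0.85 ± 0.27 (SE; adjusted p = 0.108, edgeR), and without these 3 tumours it was 0.03. *Serpinb6a*, an intracellular serpin, ran from 171 to 372 CPM in KO and was 584, 834, 364, 388 and 342 CPM in WT A to E, with a log2 fold change of −0.80 ± 0.26 (SE; adjusted p = 0.114, edgeR) and −0.33 without WT A, B and C.

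The coagulation cascade was read from a list of 34 genes, of which 24 were tested. None passed the adjusted threshold. At an unadjusted p under 0.05 there were 4 higher and 0 lower in KO, where 8.57% of all genes tested were higher and 15.5% lower. The median log2 fold change was 0.08. The genes too low to be tested were *F2*, *F9*, *F11*, *F12*, *F13b*, *Fga*, *Fgb*, *Fgg*, *Serpinc1* and *Adamts13*, with 31 counts at most in any tumour. Most of these encode plasma proteins that the liver makes. The transcripts of the 3 fibrinogen chains, on whose product factor XIII acts, were among them.

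*Pros1*, protein S, a cofactor for activated protein C and for *Tfpi* protein, had the smallest p. It ran from 75.9 to 153 CPM in KO and was 35.9, 32.5, 64.0, 57.3 and 79.0 CPM in WT A to E, with overlap at KO A and WT E alone. The log2 fold change was 0.95 ± 0.25 (SE; adjusted p = 0.0909, edgeR). *F5*, factor V, ran from 5.53 to 13.8 CPM in KO and from 1.30 to 8.11 in WT, with a log2 fold change of 1.10 ± 0.44 (SE; adjusted p = 0.159, edgeR). *Gas6*, a protein S relative that binds TAM receptors, ran from 138 to 277 CPM in KO and from 69.9 to 236 in WT, with a log2 fold change of 0.80 ± 0.33 (SE; adjusted p = 0.170, edgeR). *F2rl2*, a thrombin receptor, ran from 2.24 to 3.37 CPM in KO and from 1.00 to 2.43 in WT, with a log2 fold change of 0.62 ± 0.28 (SE; adjusted p = 0.194, edgeR). Without WT A, B and C the log2 fold change was 0.61 for *Pros1*, 0.74 for *F5*, 0.19 for *Gas6* and 0.39 for *F2rl2*.

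**Figure D4:**
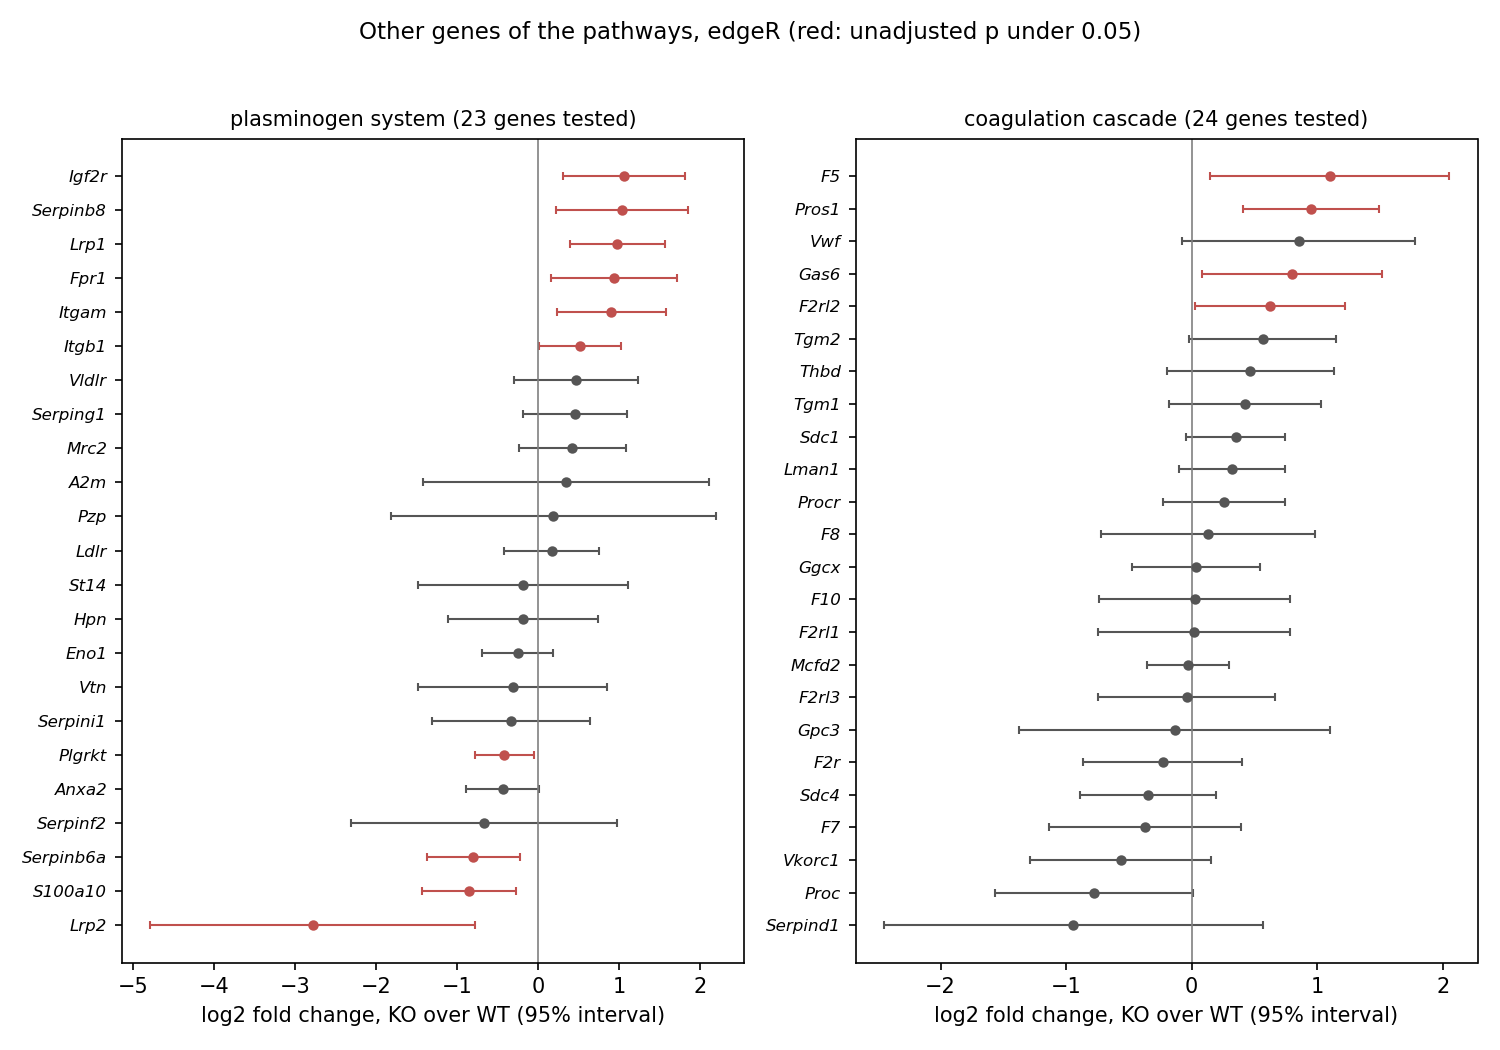
Fitted log2 fold change, KO over WT, with 95% intervals from edgeR, for the 23 tested genes of the plasminogen list and the 24 of the coagulation list, with red for an unadjusted p under 0.05. Red points number 10 in the left panel, on both sides of 0, and 4 in the right panel, all right of 0.

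The genes whose pattern over the 11 tumours was most like each member were found by Pearson's r of log2(CPM + 1) among 14889 genes, as a description. All points share the libraries and their depth, and the WT tumours with the unlike length relation weigh on each value. For *Plat* they were *Prnp* (r = 0.944) and *Cercam* (r = 0.940), and for *F13a1* they were *Chst3* (r = 0.935) and *Blk* (r = 0.920). *Blk* is a B cell kinase, and the sums of 6 B cell markers were 35.2 to 106 CPM in KO and 6.34 to 32.4 in WT. For *Tfpi2* they were *Pfkfb1* (r = 0.956) and *Cyp7b1* (r = 0.934), and for *Tfpi* they were *Gm45246* (r = 0.940) and *St7* (r = 0.901).

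For *Plau* they were *Ugcg* (r = 0.904) and *Rasip1* (r = 0.902), and for *Plaur* they were *Hnrnpa0* (r = 0.896) and *Cdkn1a* (r = 0.893). For *Serpine2* they were *Stox2* (r = 0.889) and *Kcnq3* (r = 0.888), for *Serpinb2* they were *Ckap4* (r = 0.863) and *Armh4* (r = 0.857), and for *F3* the gene given here was *Tnfaip1* (r = 0.858). Within the 6 KO tumours alone the likeness to *Plaur* was weaker, at r = 0.244 for *Hnrnpa0* and r = 0.586 for *Cdkn1a*, whereas *Pfkfb1* kept r = 0.952 with *Tfpi2*. Among the members themselves, the highest values were r = 0.745 for *Plau* with *Plaur*, 0.712 for *Plat* with *Serpine2* and 0.710 for *Tfpi* with *Tfpi2*. Within the KO tumours these were 0.234, 0.826 and 0.540.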

How the data were processed

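RNA was measured in bulk tumour pieces with a strand-specific kit. Per the labels and the study's methods, Trimmomatic was used for trimming, HISAT2 (version 2.1.0) for alignment to GRCm38 and HTSeq (version 0.11.2) for counting uniquely aligned reads. The authors deposited raw counts per gene and a signal table of normalised values, used here in the limma alternative only. Of 54232 identifiers, 54165 matched a symbol in GENCODE M21. Groups came from the sample titles. Members and lists were chosen with earlier results of these data known. Named genes were the members, *Plg*, *Pkn2*, the 4 genes of each list with the smallest p, and for each member the 2 genes with the highest r. Some named genes, and ratios that need them, are not reported here.

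CPM used TMM-scaled library sizes. The main test was the edgeR quasi-likelihood test (version 4.0.16, R 4.3.3) with filterByExpr and no covariate, adjusted by Benjamini-Hochberg over 16536 genes at 0.05, with SE taken as |log2 fold change| over the root of F. It was tested on simulated data. DESeq2 (version 1.42.0), limma (version 3.58.1) and other settings were alternatives. Intervals are 95%. All pairs of libraries differed by more than sampling noise (lowest chi-square per degree of freedom 33.9). The labels tell tumours of a group apart by letter only, so p-values measure the spread between these samples.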

Additional observations from a re-analysis of the deposited data

Results flagged for a closer look

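Values of 68 groups (named genes, ratios and summed markers, in KO or WT) were examined for a tumour far from the rest by Dixon's criterion on the log2 scale, and chance alone would single out about 1 group in 20. There were 4 such values. *F13a1* in KO D was 6.69 as log2(CPM + 1), where the other KO tumours ended at 4.98. *F13a1* in WT E was 5.14, where the other WT tumours ended at 3.72. The *F13a1* difference with and without each of these tumours stands in the report. The summed acinar markers in KO E were 9.38 on the log2 scale, where the other KO tumours ended at 3.85. The summed islet markers in KO F were 6.40, where the other KO tumours ended at 1.71.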

How the results depend on the processing

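The call of no member held under RLE normalisation, no filter, a minimum of 10 counts in every library, the replicate block, the ribosomal RNA covariate, limma and the fit without WT A, B and C. DESeq2 called 1 member higher, and leaving out 1 tumour gave 0 to 2 (2 without WT E). In the main test, 23 genes of the plasminogen list and 24 of the coagulation list were tested. Of these pathway genes, DESeq2 called 3 higher and 1 lower. Leaving out 1 tumour gave 0 to 8 higher and 0 to 3 lower (8 and 3 without WT E, 0 and 1 without WT D). Over all genes, 3 were higher and 0 lower of 16536 in the main test, and 39 and 6 of 29689 without the filter. There were 0 higher and 0 lower with 10 counts in every library or with the covariate. Limma gave 40 higher and 6 lower, and the fit without WT A, B and C gave 4 higher and 3 lower. DESeq2 called 595 higher (2.01%) and 900 lower of the 29531 genes it tested. Leaving out 1 tumour gave 0 to 608 higher and 0 to 1248 lower, with the most without WT E, where 16731 genes were tested (3.63% higher). The replicate block gave 8 higher and 1 lower, and it called no member. Letters were shared by different hosts, and the deviations of same-letter tumours correlated between −0.172 and 0.163. Tumours of unlike letters were not compared in this way, so these values cannot settle whether the letters mark pairs.

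Without WT A, B and C the log2 fold change turned to 0.21 for *Plau*, 0.12 for *Plaur* and 0.03 for *S100a10* (0.0324). Leaving out 1 tumour gave −0.22 to 0.0897 for *Plau* and −0.11 to 0.18 for *Tfpi*. The cause was not tested. A pseudocount of 0.1 or 5 CPM moved no ratio by more than its SD. Depth limits *Serpinb2*, whose lowest count in a tumour was 45.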

Other observations

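*Lrp2*, an endocytic receptor of the *Lrp1* family, had the lowest log2 fold change of the plasminogen list, at −2.78 ± 0.93 (SE; adjusted p = 0.116, edgeR), and was chosen after its values were seen. Its level was 0.162 to 3.25 CPM in KO, and 2.13, 1.08, 22.4, 2.00 and 25.0 CPM in WT A to E. Only WT C and WT E lay above the KO range. Without WT A, B and C the log2 fold change was −3.14, with WT E the only remaining WT tumour above the KO range.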
